A study of Homo sapiens with 145 samples.

Results

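The cytosolic ribosomal protein genes were followed in HT-1080 cells, an established line from a human fibrosarcoma (a tumour of connective tissue), after exposure to DNA-damaging chemicals. A gene was counted as a member if its symbol was RPL or RPS plus digits, with or without a final A or X, or was RPSA, RPLP0, RPLP1 or RPLP2, and if a probe set of it reached a log2 value of 4 or more in at least 5 arrays. Of 12070 genes measured, 68 were members, 25 of the small and 43 of the large ribosomal subunit. The rule used names and presence only, not the response to a chemical. Other genes whose symbols fit the rule were not analysed here.

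The study exposed the cells for 24 h to 7 doses of each of 3 chemicals and profiled total RNA on one-colour Affymetrix arrays. The dosed groups were etoposide (ETP, a topoisomerase II poison) at 0.003, 0.01, 0.03, 0.1, 0.3, 1 and 3 µM, methyl methanesulfonate (MMS, an alkylating agent) at 1, 3, 10, 30, 100, 300 and 500 µM, and quercetin (QUE, a plant flavonol) at 1, 3, 10, 30, 60, 80 and 100 µM. Each chemical had its own vehicle group in DMSO, and every group received the same final 0.1% of DMSO in complete medium with serum. All groups come from 1 cell line, and the labels do not say whether replicate numbers stand for separate cultures, so p-values measure the spread between these samples, which may be technical. There were 5 replicates in each ETP and QUE group, 6 in each MMS group, and 5 at MMS 500 µM.

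A ribosome joins a small subunit, which reads the mRNA, to a large subunit, which makes the peptide bond, and each is built from ribosomal RNA and many small proteins. Most mRNAs of ribosomal proteins start with a C followed by a run of pyrimidines, the terminal oligopyrimidine (TOP) motif, through which the kinase mTOR and the protein LARP1 set how much of the mRNA is translated. When ribosome assembly is disturbed, free RPL5 and RPL11 bound to 5S RNA block MDM2, the ligase that destroys p53, so this gene family is tied to the p53 response that DNA damage also starts.

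**Figure D1:**
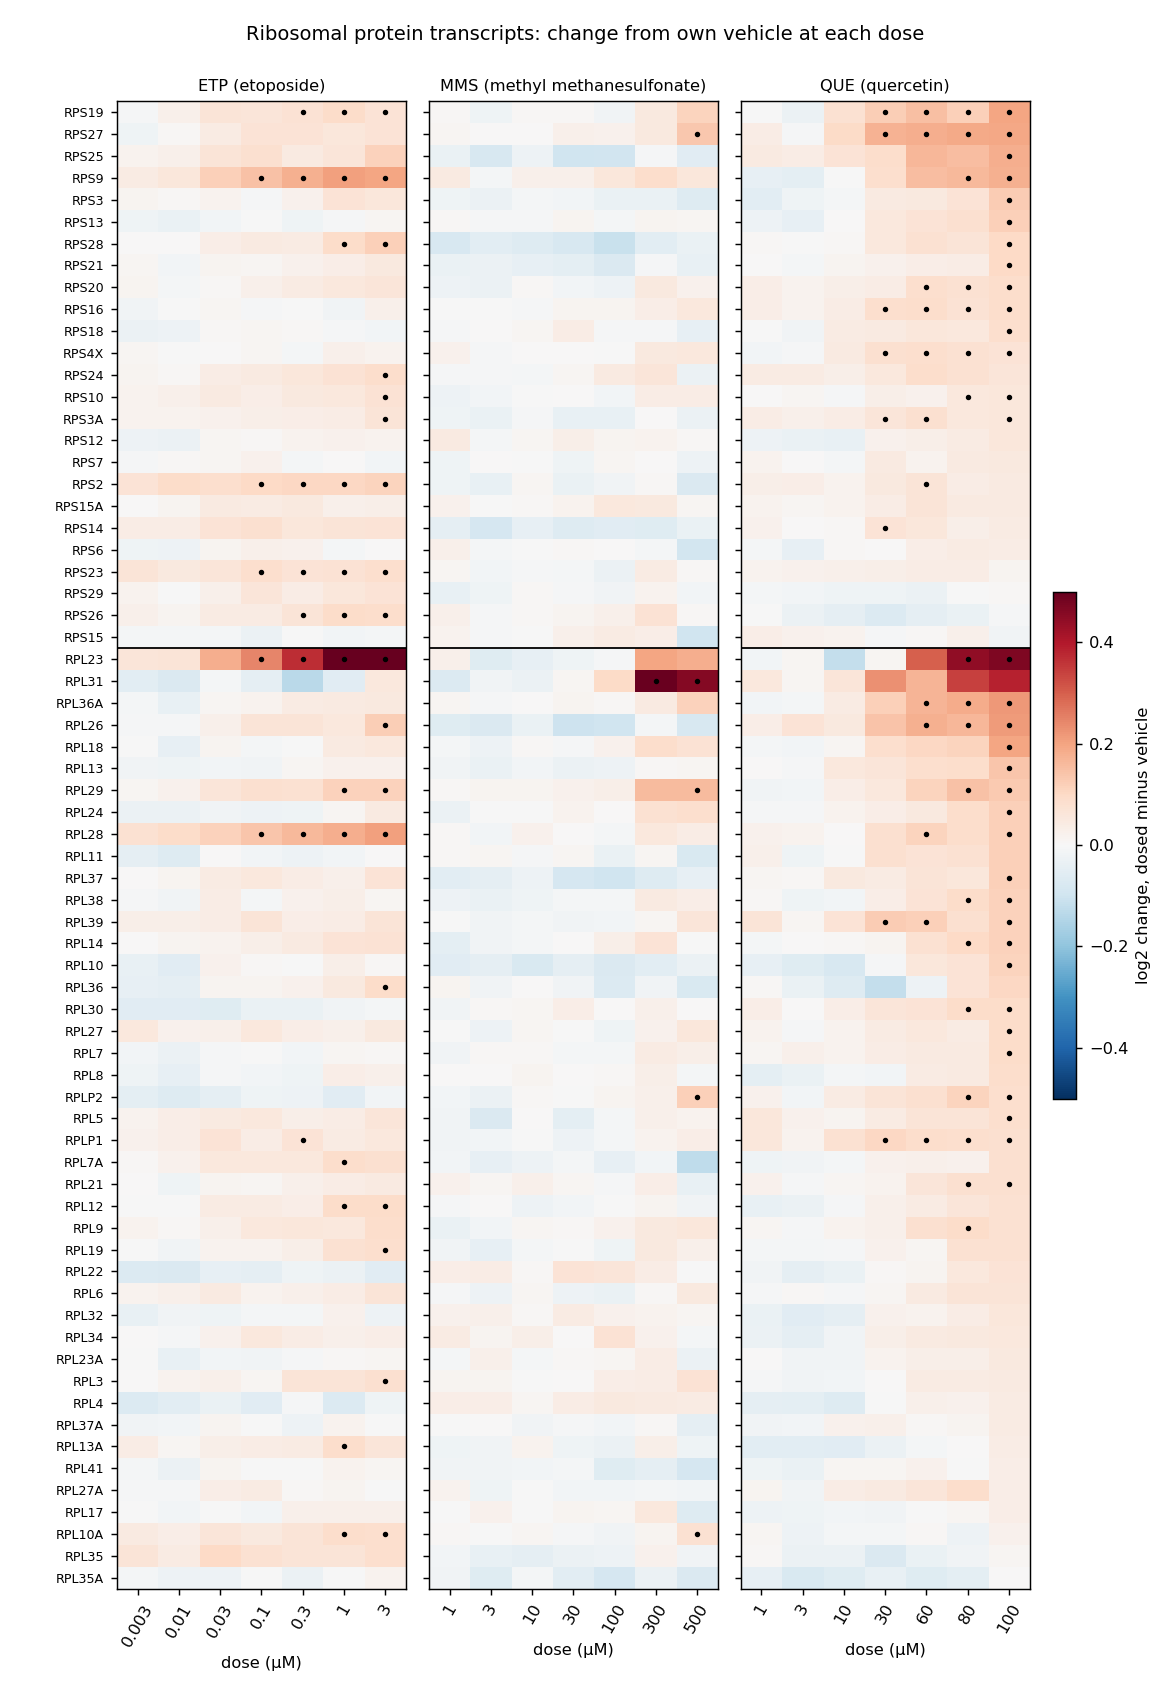
Log2 change of each of the 68 ribosomal protein genes (down the page) at every dose of ETP, MMS and QUE against the DMSO vehicle of the same chemical (across the page), from limma, with dots where the adjusted p was under 0.05. The colours show small changes that are mostly positive at the higher ETP and QUE doses, and the largest changes belong to RPL23 and RPL31, the 2 genes with the lowest signal.

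The chemicals were active at the doses used. CDKN1A, a cell cycle inhibitor induced by p53, rose by 1.83 log2 units under the highest dose of ETP, 1.41 under that of MMS and 1.29 under that of QUE, each set against its vehicle, and MDM2 rose by 1.35, 0.89 and 1.13. Of 9 mesenchymal markers, 8 were measured above the filter, against 0 of 5 epithelial markers and 1 of 6 blood cell markers (CD3D, with vehicle means of 3.16 to 4.09). The 8 ETP and 8 QUE arrays with number 2 were left out by the rule that defined the members, because they responded like the other chemical. Across 12070 genes the change of the number 2 array at ETP 3 µM correlated at 0.30 with the other ETP 3 µM replicates and at 0.90 with QUE 100 µM. The number 2 array at QUE 100 µM correlated at 0.39 with the other QUE 100 µM replicates and at 0.89 with ETP 3 µM. In the MMS experiment, number 4 of every group and number 3 at 500 µM, 9 arrays, had upper quartiles of 5.68 to 5.86 log2 units against 5.88 to 6.01 in the other 38, and a mean over the 68 genes of 12.48 to 12.53 against 12.59 to 12.75.

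The ribosomal protein genes were among the brightest features on the arrays. Of the 68, 65 (95.6%) had a mean log2 signal of 12 or more, against 113 of the other genes (0.942%), and 34 had a mean of 13 or more. The brightest probe set on an array lay between 13.2 and 13.6 in the MMS experiment, so most of these genes sat within about 1 log2 unit of the top of the scale. Their spread between replicates was small: the median residual SD was 0.068 log2 units for the 68 genes, 0.090 for the 113 other genes of that brightness and 0.221 for all other genes. RPL23 (mean 8.19), RPL31 and RPL36 were the 3 members under 12. A signal of 1 probe set cannot be set against that of another, so these levels do not rank the genes by abundance, and how far the top of the scale compresses changes was not tested. In RNA from whole cultures, fewer cells and less RNA per cell cannot be told apart, and the authors' normalization removes any change in total RNA.

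To show how these genes begin, 50-base windows (30 bases before the annotated start and 20 from it on) were read from the RefSeq promoter table of build GRCh38.p14 for members named below. Capitals mark the unbroken run of C and T from the start. The first 7 genes have the C and pyrimidine run of the TOP motif, and RPS28 is shown as a member without it at its annotated start.
RPL28 (chr19:55385902-55385951, plus strand): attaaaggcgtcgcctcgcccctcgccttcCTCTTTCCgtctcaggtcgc
RPS9 (chr19:54200828-54200877, plus strand): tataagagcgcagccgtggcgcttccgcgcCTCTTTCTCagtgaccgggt
RPS19 (chr19:41860225-41860274, plus strand): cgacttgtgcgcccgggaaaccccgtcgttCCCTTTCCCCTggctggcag
RPS27 (chr1:153990732-153990781, plus strand): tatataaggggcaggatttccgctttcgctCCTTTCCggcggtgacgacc
RPL26 (chr17:8383174-8383223, minus strand): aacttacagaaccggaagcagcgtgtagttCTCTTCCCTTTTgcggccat
RPL36A (chrX:101390981-101391030, plus strand): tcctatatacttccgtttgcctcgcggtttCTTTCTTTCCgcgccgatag
RPL31 (chr2:101002259-101002308, plus strand): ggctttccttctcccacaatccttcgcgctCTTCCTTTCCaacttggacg
RPS28 (chr19:8321466-8321515, plus strand): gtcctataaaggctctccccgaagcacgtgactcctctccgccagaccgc

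The pyrimidine start was the common feature of the family. Starts were found for 58 of the 68 members, and 43 of them (74.1%) had at 1 or more starts a C followed by at least 4 more C or T, against 5.14% of all 27305 genes in the table. Counted by start, the shares were 62.3% of 69 member starts and 4.07% of 35116 starts. The longest run was 19 bases, in RPL39. In the 300 bases around each start (250 before and 50 after, both strands), CCGGAAG, the core bound by ETS-family factors, was present in 36.2% of member starts and 10.3% of all starts. CTCTTTCC was present in 17.4% against 3.04%, and CACGTG, the E-box that MYC can bind, in 5.8% against 7.26%. These are matches of letters in a window and not evidence of binding.

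Across the dose series the family moved little, and what passed the test moved up. limma tested each dosed group against the same chemical's vehicle over all 12070 genes, and a gene is said to have risen or fallen only where the Benjamini-Hochberg adjusted p was under 0.05. The 3 lowest ETP doses, the 5 lowest MMS doses and the 3 lowest QUE doses had 0 members past limma's test. At an unadjusted p under 0.05 they had at most 4 members lower and at most 3 higher, except ETP 0.03 µM with 10 higher. Few genes of any kind passed there: none at the 2 lowest ETP and 4 lowest MMS doses, 0.00829% higher and 0.0249% lower at QUE 1 µM, and 0.0414% higher and 0.0994% lower at QUE 3 µM. In this fit, without a block by number, no member fell at any dose, and no member reached 1.5-fold at any dose by its brightest probe set.

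For ETP, members that rose numbered 0 at 0.03 µM, where 1.37% of all genes rose, and 5 at 0.1 µM, where 5.9% rose. There were 8 at 0.3 µM against 11% of all genes, 13 at 1 µM against 17.5%, and 18 of 68 (26.5%) at 3 µM against 20.9%. The shares of all genes that fell at these 5 doses were 1.2%, 8.08%, 8.72%, 14.7% and 20.5%, against 0 members. Same-numbered ETP samples deviated together, and with the number as a block the counts were 7 higher and 1 lower (RPL30) at 0.03 µM, 10 higher at 0.1 µM, 11 higher and 1 lower (RPL31) at 0.3 µM and 31 higher at 3 µM. In that same fit 13.3%, 18.5%, 23.1% and 30.2% of all genes were higher at these 4 doses, and 10.2%, 18.9%, 19.9% and 29.5% lower. Without a variance trend in limma 7 members rose at 3 µM, against 20.7% of all genes, and with each array centred on its median 28 did, against 22.6%. With the number 2 arrays kept, 0 members passed at 0.1 µM and 18 at 3 µM, 13 of which were among the 18 above. The count at 0.1 µM rested on single samples: it was 2 without number 3 of that dose or number 1 of the vehicle, and 3 without numbers 4 or 6 of that dose or number 4 of the vehicle. The count at 0.3 µM was 4 without number 5 of that dose or number 1 of the vehicle, and 5 without number 6 of that dose or number 5 of the vehicle.

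For MMS, 1 member rose at 300 µM, where 19.6% of all genes rose and 16.9% fell, and 5 of 68 (7.35%) rose at 500 µM, where 33.9% rose and 27.3% fell. At 100 µM 0 members passed, against 1.67% of all genes higher and 2.4% lower. The block by number gave 6 members higher at 300 µM, where it gave 28.8% of all genes higher and 23.9% lower, and 12 higher and 3 lower (RPL7A, RPS3 and RPS6) at 500 µM, where it gave 38.8% and 32.2%. At 100 µM it gave 1 member lower, RPL35A, against 9.73% of all genes lower and 8.72% higher. Without the 9 MMS arrays of low upper quartile the counts were 4 at 300 µM and 17 at 500 µM, where 20.1% and 33.2% of all genes then rose. With each array centred on its median 19 rose at 500 µM, against 36.3% of all genes. The count at 500 µM was 8 without number 3 of that dose, 3 without number 2 of that dose or number 3 of the vehicle, and 2 without numbers 5 or 6 of that dose. The count at 300 µM was 3 without number 4 of that dose, and 2 without numbers 2, 5 or 6 of the vehicle.

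For QUE, 8 members rose at 30 µM, where 18% of all genes rose and 18% fell. At 60 µM 12 rose, against 24.7% of all genes higher and 22.6% lower, and at 80 µM 18 rose, against 23.5% higher and 22.9% lower. At 100 µM 34 of 68 (50%) rose, against 25.8% of all genes higher and 24.7% lower. The excess over all genes at 100 µM depended on the settings. With each array centred on its median 14 members (20.6%) rose there, against 25.9% of all genes, and 0, 3 and 4 rose at 30, 60 and 80 µM, against 16%, 23.8% and 23.2%. Without a variance trend in limma 12 members (17.6%) rose at 100 µM, against 25.7% of all genes, and 3, 4 and 5 rose at the 3 doses below it. At 10 µM 0 members passed, against 2.39% of all genes higher and 1.51% lower. The block by number gave 2 members higher there, where it gave 6.17% of all genes higher and 4.14% lower, and 16 at 30 µM, where it gave 23.2% and 23.4%. At 60, 80 and 100 µM the block gave 31, 38 and 47 members higher. In that fit 29.2%, 28.1% and 29.9% of all genes were higher at these doses, and 27.4%, 28% and 29.6% lower. With the number 2 arrays kept, the counts were 7, 12, 22 and 34 from 30 to 100 µM. The count at 100 µM was 22 without number 1 of the vehicle, the count at 80 µM was 8 without number 4 of that dose and 9 without number 1 of the vehicle, and the count at 60 µM was 23 without number 1 of that dose.

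The changes were small against the rest of the array. The median change at ETP 3 µM was 0.05 log2 units over the 68 members, 0.01 over all genes and -0.03 over the 113 other bright genes. At MMS 500 µM the medians were 0.00, 0.05 and -0.09. Without the 9 MMS arrays of low upper quartile the members' median there was 0.05, with 56 of 68 above 0 in place of 35 and 0.05 over all genes, and with each array centred it was 0.06 against 0.11. At QUE 100 µM the 3 medians were 0.08, 0.00 and -0.09. The median size of change, whatever its direction, was 0.05 for members and 0.21 for all genes at ETP 3 µM, 0.04 and 0.40 at MMS 500 µM, and 0.08 and 0.34 at QUE 100 µM. Changes of at least 1.5-fold past the test were found for 0 members at any dose by the brightest probe set. By the mean of a gene's probe sets 6 members passed that size at MMS 500 µM and 3 at QUE 100 µM, and by the brightest set without a suffix 8 and 4 did. They were found for 0.63%, 3.74%, 4.56%, 8.9% and 13.2% of all genes at ETP 0.03, 0.1, 0.3, 1 and 3 µM, and for 1.61%, 12.2% and 34.6% at MMS 100, 300 and 500 µM. For QUE from 1 to 100 µM the shares were 0.0331%, 0.0911%, 1.78%, 17%, 25.4%, 24.5% and 27.6%. The 95% confidence interval of the change lay within 1.2-fold in both directions for 64 members at ETP 3 µM, 63 at MMS 500 µM and 60 at QUE 100 µM.

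Other genes with a mean signal of 12 or more did not show the same pattern of calls. Of the 113, 15.9% rose and 30.1% fell at ETP 3 µM, 23% rose and 46% fell at MMS 500 µM, and 17.7% rose and 43.4% fell at QUE 100 µM, while no ribosomal protein gene fell in this fit. At MMS 500 µM RPL7A, RPS3 and RPS6 were lower with the number as a block, and RPL41 and RPL7A with quantile normalization. The cut at 12 was the only match in brightness, and 34 of the 68 members had a mean of 13 or more. This comparison group was chosen after the data had been seen, and the difference from it was not tested.

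**Figure D2:**
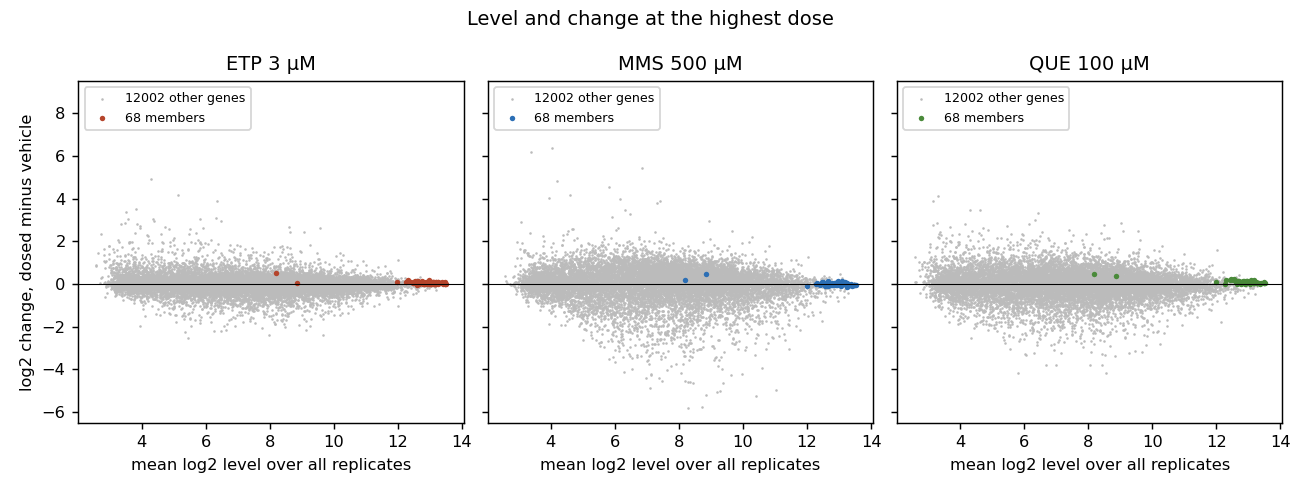
Log2 change at the highest dose of each chemical (vertical) against the mean log2 signal over all arrays (horizontal), with the 68 ribosomal protein genes marked over all other genes. Of the members, 65 lie at a mean of 12 or more, where none changes by 1.5-fold, while other genes spread widely.

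The mean over the 68 genes moved with dose by less than 0.1 log2 units. It was 12.95 ± 0.03 in the ETP vehicle (SD, n = 5), and 12.98 ± 0.01 at 0.1 µM, 13.00 ± 0.03 at 1 µM and 13.01 ± 0.01 at 3 µM (n = 5 each). In the MMS experiment it was 12.63 ± 0.07 in the vehicle (n = 6), 12.66 ± 0.07 at 300 µM (n = 6) and 12.64 ± 0.10 at 500 µM (n = 5). In the QUE experiment it was 12.90 ± 0.04 in the vehicle, 12.94 ± 0.04 at 30 µM, 12.98 ± 0.05 at 80 µM and 13.00 ± 0.05 at 100 µM (n = 5 each). Set against the vehicle of the same number, the mean was higher in 5 of 5 numbers at each ETP dose from 0.03 µM up and at each QUE dose from 30 µM up, in 6 of 6 at MMS 300 µM and in 4 of 5 at MMS 500 µM. For ETP 3 µM these differences ran between 0.035 and 0.086, and at QUE 100 µM between 0.065 and 0.118. At MMS 500 µM they ran between -0.077 and 0.050.

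**Figure D3:**
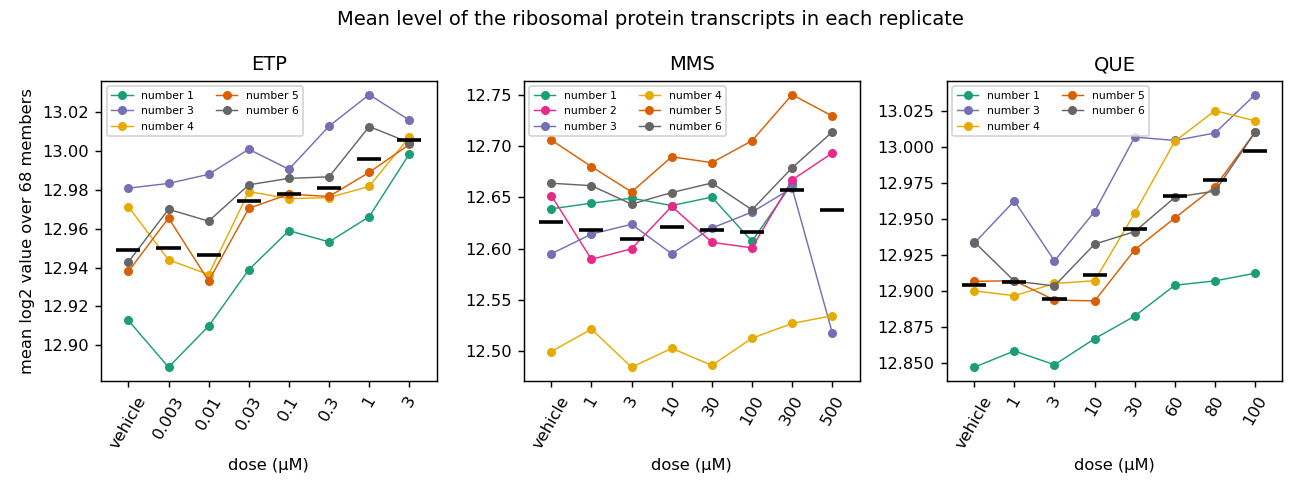
Mean log2 signal over the 68 ribosomal protein genes in every replicate (points), by dose of ETP, MMS and QUE, with lines joining replicates of the same number and black bars at the group means. The ETP and QUE means are highest at the highest dose, and number 4 of every MMS group and number 3 at MMS 500 µM lie at 12.53 or less, apart from the rest.

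Over the whole dose series, a moderated F-test of all 7 doses of a chemical passed 8 members for ETP (RPL19, RPL23, RPL28, RPL36, RPS19, RPS26, RPS28 and RPS9), where 38.3% of all genes passed. It passed 1 for MMS (RPL31), where 59.3% of all genes passed, and 30 for QUE, where 56.8% passed. With the replicate number as a block the counts were 20 for ETP, 11 for MMS and 51 for QUE, where 68.3%, 75.6% and 68.7% of all genes passed. With each array centred the QUE count was 9, against 56.1% of all genes, and without a variance trend it was 8, against 56.6%. Without the 9 MMS arrays of low upper quartile the MMS count was 5. Leaving out any 1 MMS replicate gave 1 to 3, the 3 without number 3 at 500 µM or number 5 of the vehicle.

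Among the small subunit proteins, 9 of 25 rose at ETP 3 µM, 1 of 25 at MMS 500 µM and 14 of 25 at QUE 100 µM. At these doses 20.9%, 33.9% and 25.8% of all genes rose. RPS19, which is needed to mature the 18S rRNA and is the gene most often mutated in Diamond-Blackfan anaemia, had the smallest adjusted p of the family under QUE. Its log2 signal was 13.44, 13.45, 13.47, 13.47 and 13.48 at QUE 100 µM, and 13.21, 13.26, 13.29, 13.25 and 13.32 in the vehicle. Every dosed value lay above every vehicle value. RPS19 rose by 0.20 (SE 0.03, limma adjusted p = 5.15e-07), and it had already risen at 30 µM by 0.12. At ETP 3 µM RPS19 rose by 0.07 (SE 0.03, limma adjusted p = 0.0253), with 13.32 to 13.38 in dosed cells and 13.21 to 13.31 in the vehicle. That call was lost with quantile normalization (limma adjusted p = 0.0781), without a variance trend (0.127) and without the filter on low values (0.0547). It was also lost without number 6 of that dose (0.0784) or number 5 of the vehicle (0.0938). By the mean of its probe sets RPS19 did not pass at ETP 3 µM (0.02, limma adjusted p = 0.872) or QUE 100 µM (0.20, limma adjusted p = 0.0828). At MMS 500 µM RPS19 differed by 0.11 (limma adjusted p = 0.0503). It passed there without the 9 MMS arrays of low upper quartile (0.14, limma adjusted p = 0.0154) and with the number as a block (0.12, limma adjusted p = 0.00303). The brightest RPS19 probe set without an x or s suffix had a mean signal of only 4.10, and its change had the opposite sign, -0.32 at ETP 3 µM and -0.17 at QUE 100 µM, neither past the test, and -0.58 at QUE 30 µM (limma adjusted p = 0.0143).

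RPS9 lies at the mRNA entry channel of the small subunit. It had 12.45, 12.52, 12.46, 12.52 and 12.66 log2 units at ETP 3 µM, and 12.14, 12.38, 12.47, 12.22 and 12.40 in the vehicle. The groups overlapped only through number 4 of the vehicle (12.47). RPS9 rose by 0.20 (SE 0.05, limma adjusted p = 0.0023) at ETP 3 µM and had risen from 0.1 µM up, and at QUE 100 µM it rose by 0.18 (SE 0.07, limma adjusted p = 0.0265). RPS28, at the mRNA exit, had 13.01, 12.96, 12.94, 12.91 and 12.92 at ETP 3 µM, and 12.85, 12.85, 12.89, 12.80 and 12.73 in the vehicle. Those groups did not overlap, and RPS28 rose by 0.12 (SE 0.03, limma adjusted p = 0.000588). It did not pass there by the mean of its probe sets (0.050, limma adjusted p = 0.582) or by the set without a suffix (0.046, limma adjusted p = 0.669). RPS26, its neighbour at the mRNA exit, rose by 0.09 at ETP 3 µM with dosed values of 12.84 to 12.87 and vehicle values of 12.73 to 12.79. RPS2 of the entry channel and RPS23 of the decoding centre rose by 0.11 and 0.08 at ETP 3 µM, both from 0.1 µM up. At 0.1 µM RPS9, RPS2 and RPS23 lost their calls with number 2 kept (limma adjusted p of 0.17, 0.0666 and 0.12). They also lost them without a variance trend (0.084, 0.108 and 0.118). RPS9 lost that call without number 3, 4, 5 or 6 of that dose or number 1 or 5 of the vehicle (0.0809 to 0.234). Without number 4 of the vehicle RPS2 did not pass at 0.1, 0.3 or 1 µM (0.112, 0.0668 and 0.057).

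RPS27, a zinc-finger protein of the small subunit, had the largest rise past the test at QUE 30 µM. Its log2 changes under 10, 30, 60, 80 and 100 µM of QUE were 0.10 (limma adjusted p = 0.283), 0.17, 0.18, 0.19 and 0.19. At QUE 100 µM it had 13.25, 13.38, 13.25, 13.42 and 13.45, and in the vehicle 13.01, 13.27, 13.11, 13.19 and 13.20. The groups overlapped at the vehicle's number 3 (13.27). At MMS 500 µM it rose by 0.13 (SE 0.05, limma adjusted p = 0.0284), with 12.97, 12.73, 12.90, 12.97 and 12.94 in dosed cells and 12.76, 12.71, 12.79, 12.70, 12.83 and 12.83 in the vehicle. There 1 dosed sample, number 3, lay among the vehicle samples. The call at MMS 500 µM was lost without number 2, 5 or 6 of that dose (limma adjusted p of 0.0619 to 0.0777). Without number 2 or 4 of the vehicle it was lost too (0.0585 and 0.0634). The same happened without a variance trend (0.0528) and by the mean of the probe sets (-0.093, limma adjusted p = 0.51). The RPS27 probe set without a suffix, with a mean signal of 3.73, gave -0.32 at MMS 500 µM and -0.11 at QUE 100 µM, neither past the test. The other members that rose at QUE 30 µM were RPL39, RPLP1, RPS16, RPS4X, RPS14, RPS3A and RPS19, by 0.06 to 0.13.

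RPS3, an mRNA entry protein that also acts in DNA repair and binds MDM2, had 12.87, 12.95, 12.99, 12.86 and 12.91 at QUE 100 µM, and 12.74, 12.80, 12.83, 12.79 and 12.80 in the vehicle. Every dosed value was above every vehicle value, and RPS3 rose by 0.13 (SE 0.03, limma adjusted p = 0.000643). RPS6, the S6 kinase substrate, differed from its vehicle by 0.00 at ETP 3 µM, -0.09 at MMS 500 µM and 0.04 at QUE 100 µM, and none of these passed (limma adjusted p of 0.949, 0.189 and 0.37). With the number as a block RPS6 was lower at MMS 500 µM, by -0.08 (limma adjusted p = 0.0134). RPS7 and RPS14, which also bind MDM2, did not pass at any of the 3 highest doses, with changes of -0.03 to 0.07. RPS14 passed at ETP 3 µM with the number as a block (limma adjusted p = 0.0217) or with number 2 kept (0.0413), and RPS3 with the block (limma adjusted p = 0.0479).

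Among the large subunit proteins, 9 of 43 rose at ETP 3 µM, 4 of 43 at MMS 500 µM and 20 of 43 at QUE 100 µM. At these doses 20.9%, 33.9% and 25.8% of all genes rose. RPL23, an MDM2 binder on the face that meets the small subunit, had the largest change of the family under ETP and QUE. Its values at ETP 3 µM were 8.94, 8.81, 8.80, 8.95 and 9.06, and in the vehicle 8.38, 8.46, 8.56, 8.26 and 8.36. All dosed values lay above all vehicle values, and the rise was 0.51 log2 units, or 1.42-fold (SE 0.07, limma adjusted p = 2.51e-07). Lower doses of 0.1, 0.3 and 1 µM gave rises of 0.24, 0.37 and 0.52. With the number 2 arrays kept RPL23 did not pass at 0.1 µM (0.19, limma adjusted p = 0.34). At QUE 100 µM RPL23 had 8.26, 9.01, 8.75, 8.50 and 8.59, and in the vehicle 8.22, 8.17, 8.08, 8.14 and 8.17. Number 1 was the lowest dosed sample and stood just above the vehicle, and RPL23 rose by 0.47 (SE 0.15, limma adjusted p = 0.0104). At MMS 500 µM the change was 0.18 (95% interval -0.01 to 0.37, limma adjusted p = 0.0894). RPL23 had the lowest mean signal of the 68, so its change and the changes of genes near the top of the scale were not measured over the same range.

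RPL28 and RPL29, proteins that bacterial ribosomes lack, rose under more than 1 chemical. RPL28 had 13.22, 13.23, 13.24, 13.28 and 13.24 at ETP 3 µM, and 13.00, 13.17, 12.87, 13.04 and 13.11 in the vehicle. The groups did not overlap, and RPL28 rose by 0.20 (SE 0.04, limma adjusted p = 0.000144), and by 0.12 at QUE 100 µM. RPL29 was the 1 member that rose at the highest dose of every chemical, by 0.12 (ETP), 0.16 (MMS) and 0.13 (QUE, limma adjusted p of 0.0171, 0.043 and 0.0294). The call under MMS was lost without number 2, 5 or 6 of that dose or any 1 of numbers 1 to 4 of the vehicle (limma adjusted p of 0.0589 to 0.159). It was also lost without a variance trend (0.0627), without the filter on low values (0.0654) and by the mean of the probe sets (0.196). The RPL29 values at MMS 500 µM, 12.54, 12.38, 12.39, 12.69 and 12.70, overlapped those of its vehicle, 12.38, 12.34, 12.31, 12.23, 12.55 and 12.49.

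RPL36A, near the exit site for spent tRNA, and RPL18 rose under QUE. RPL36A had 12.46, 12.77, 12.76, 12.76 and 12.77 at QUE 100 µM, and 12.24, 12.59, 12.52, 12.51 and 12.58 in the vehicle. Number 1 was low in both groups, and the rise was 0.22 (SE 0.07, limma adjusted p = 0.0109). RPL18 rose by 0.20 (SE 0.05, limma adjusted p = 0.0011), with 12.58 to 12.85 in dosed cells and 12.51 to 12.60 in the vehicle.

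Around the tunnel through which the new peptide leaves, 2 of 6 measured genes rose at ETP 3 µM, 1 at MMS 500 µM and 1 at QUE 100 µM. Of all genes, 20.9%, 33.9% and 25.8% rose there. RPL26, which also binds the p53 mRNA, had 12.71, 12.93, 12.85, 12.95 and 12.92 at QUE 100 µM, and 12.43, 12.76, 12.66, 12.71 and 12.73 in the vehicle. Number 1 was again lowest in both groups, and RPL26 rose by 0.21 (SE 0.06, limma adjusted p = 0.00327). It rose by 0.12 at ETP 3 µM (limma adjusted p = 0.0337), and at MMS 500 µM the change was -0.08 (limma adjusted p = 0.279). The ETP call was lost without number 3 or 4 of that dose (limma adjusted p of 0.0744 and 0.0988). Without number 1 or 6 of the vehicle it was lost too (0.134 and 0.057). The same happened without a variance trend (0.0656) and without the filter on low values (0.0534). RPL31, at the rim of the tunnel, was the 1 member past the test at MMS 300 µM, by 0.50 (limma adjusted p = 6.7e-05). At MMS 500 µM it had 8.69, 8.92, 8.73, 8.97 and 8.94, and in the vehicle 8.61, 8.25, 8.16, 8.27, 8.66 and 8.38. All dosed values lay above the vehicle, and RPL31 rose by 0.46, or 1.38-fold (SE 0.10, limma adjusted p = 0.00012). At QUE 100 µM the change was 0.39 with an interval of -0.01 to 0.78, and at ETP 3 µM it was 0.05 with an interval of -0.19 to 0.30.

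RPL5 and RPL11 are the proteins of the 5S particle. RPL5 differed by 0.06 at ETP 3 µM (95% interval -0.01 to 0.13) and by 0.02 at MMS 500 µM (-0.07 to 0.11), and it rose by 0.08 at QUE 100 µM (limma adjusted p = 0.0179). RPL11 differed by 0.00 at ETP 3 µM (-0.08 to 0.08), by -0.08 at MMS 500 µM (-0.18 to 0.03) and by 0.12 at QUE 100 µM (-0.01 to 0.25), and did not pass at any of the 3. RPL5 lost its call at QUE 100 µM with each array centred (limma adjusted p = 0.109), without a variance trend (0.119) and without number 3 or 5 of that dose or number 1 of the vehicle (0.0552 to 0.0714). RPL11 passed there with the number as a block (limma adjusted p = 0.00155) and without number 1 of that dose (0.16, limma adjusted p = 0.0315). The difference between these 2 genes was not tested. Of the 7 measured MDM2 binders, 2 rose at ETP 3 µM (RPL23 and RPL26), 0 at MMS 500 µM and 4 at QUE 100 µM (RPL5, RPL23, RPL26 and RPS3). The shares of all genes that rose there were 20.9%, 33.9% and 25.8%. RPL22, which has the close paralog RPL22L1, differed by -0.06, -0.00 and 0.07 at the highest ETP, MMS and QUE doses, and did not pass. That was by its brightest probe set. Its brightest set without a suffix rose by 0.27 at ETP 3 µM (limma adjusted p = 0.00488) and by 0.29 at QUE 100 µM (0.00109). At QUE 100 µM RPL22 also passed by the mean of its probe sets (0.16, limma adjusted p = 0.000636) and with the number as a block (0.0428).

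The stalk, which recruits elongation factors, is measured here by RPLP1 and RPLP2. Both rose at QUE 100 µM, by 0.08 each, and RPLP2 rose at MMS 500 µM by 0.12 (SE 0.04, limma adjusted p = 0.00947). By the mean of its probe sets RPLP2 did not pass at MMS 500 µM (0.0025, limma adjusted p = 0.989). RPLP2 had 12.86, 12.71, 12.67, 12.84 and 12.78 at MMS 500 µM, and 12.62, 12.69, 12.63, 12.53, 12.75 and 12.71 in the vehicle, and the groups overlapped. Of 16 measured genes mutated in Diamond-Blackfan anaemia, 6 rose at ETP 3 µM, 2 at MMS 500 µM and 8 at QUE 100 µM. The shares of all genes that rose at these doses were 20.9%, 33.9% and 25.8%.

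RPL13A and RPS18 are often used as reference genes in quantitative PCR. RPS18 differed by -0.01 at ETP 3 µM (95% interval -0.06 to 0.04) and -0.04 at MMS 500 µM (-0.18 to 0.10), and rose by 0.09 at QUE 100 µM (0.03 to 0.14). That call was lost with quantile normalization (0.03, limma adjusted p = 0.413), with each array centred (0.0523) and without a variance trend (0.103). RPL13A differed by 0.06, -0.02 and 0.04 at the highest ETP, MMS and QUE doses, none past the test, but it rose by 0.09 at ETP 1 µM. With the number as a block RPL13A passed at ETP 3 µM too (limma adjusted p = 0.0307), as it did with each array centred (0.0477). By the mean of its probe sets it passed at ETP 3 µM (0.09, limma adjusted p = 0.0036) and at QUE 100 µM (0.08, limma adjusted p = 0.0497).

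**Figure D4:**
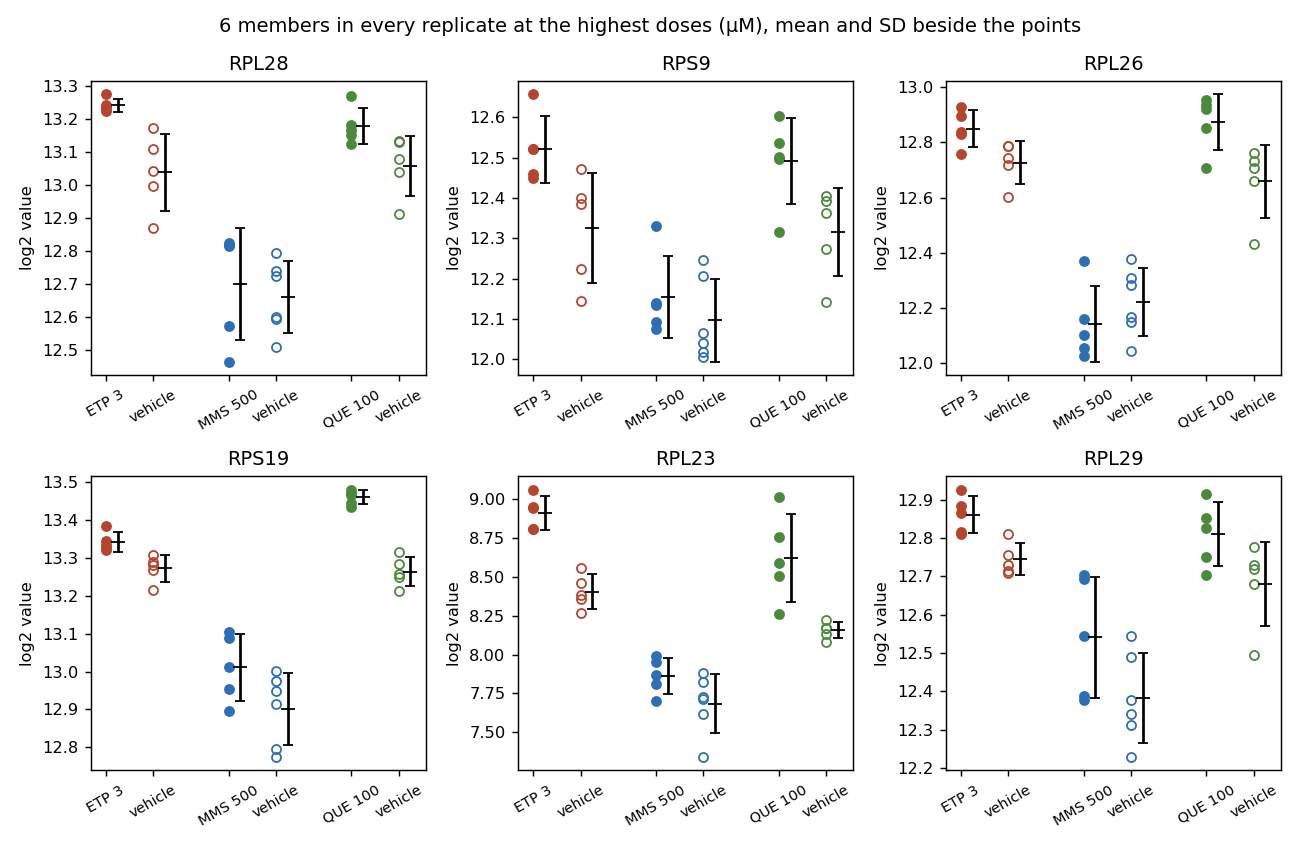
Log2 signal of RPL28, RPS9, RPL26, RPS19, RPL23 and RPL29 in every replicate at the highest dose (filled points) and in the DMSO vehicle of the same chemical (open points), with the mean and SD beside them. All dosed points lie above all vehicle points for RPL23 and RPS19 under ETP and QUE, while the MMS points overlap in all 6 genes, and each vertical axis covers its own range.

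Some members rose under more than 1 chemical. At ETP 3 µM and QUE 100 µM, 9 genes rose in both (RPL23, RPL26, RPL28, RPL29, RPS10, RPS19, RPS28, RPS3A and RPS9), which is 50% of the 18 and 26.5% of the 34. These equal the shares of all 68 members that rose at QUE 100 µM (50%) and ETP 3 µM (26.5%). No sharing beyond those shares was seen. MMS 500 µM shared RPL10A and RPL29 with ETP 3 µM, and RPL29, RPLP2 and RPS27 with QUE 100 µM. The RPL10A call under MMS was lost without number 2, 5 or 6 of the dose (limma adjusted p of 0.0772 to 0.129). Without any 1 of numbers 1 to 5 of the vehicle it was lost too (0.0517 to 0.104). The same happened without a variance trend (0.125) and without the filter on low values (0.0864). Calls of RPL26, RPL29, RPLP2, RPS19, RPS27 and RPS28 were also lost in other settings, as given above. The experiments have separate vehicles, and the doses are not matched.

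Whether the highest doses differed from each other was tested as a difference of changes in 1 limma fit. Between ETP 3 µM and MMS 500 µM, 5 members had the higher change under ETP, where 20.7% of all genes did, and 1 had the lower, where 25.2% did. The largest were RPL7A (a change of 0.08 under ETP and -0.13 under MMS, a difference of 0.21, SE 0.08, limma adjusted p = 0.0189), RPL26 (0.12 and -0.08), RPS2 (0.11 and -0.07) and RPS28 (0.12 and -0.03). RPS3 was the fifth, and RPLP2 was the member lower under ETP (-0.01 and 0.12). By the mean of its probe sets the RPLP2 difference was -0.08 and did not pass (limma adjusted p = 0.715). Between MMS 500 µM and QUE 100 µM, 7 members were lower under MMS, where 19% of all genes were, and 0 were higher, where 22.5% were. The largest differences were -0.29 for RPL26 (limma adjusted p = 0.00202), -0.24 for RPS25, -0.21 for RPL7A and -0.20 for RPL11, and RPS3 differed by -0.19 (limma adjusted p = 0.000477). Between ETP 3 µM and QUE 100 µM, 0 members passed in limma, where 18.1% of all genes were higher under ETP and 16.9% lower, and 4 had an unadjusted p under 0.05.

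These differences depended on single samples and on the MMS arrays. Without the 9 MMS arrays of low upper quartile, 3 members differed between ETP and MMS, where 43% of all genes did, and 2 between MMS and QUE, where 37.6% did. Between ETP and MMS, RPL7A, RPL26 and RPS2 then differed by 0.13, 0.17 and 0.10 and no longer passed (limma adjusted p of 0.0851, 0.101 and 0.146). Between MMS and QUE, RPS25, RPL7A and RPL11 differed by -0.17, -0.13 and -0.16 and no longer passed (limma adjusted p of 0.181, 0.0912 and 0.107). With the number as a block 19 members differed between ETP and MMS, 15 between ETP and QUE and 28 between MMS and QUE, where 58%, 50.3% and 55.1% of all genes did. The ETP and MMS count was 2 without MMS 500 µM number 3 or 4, and 11 without number 5. The MMS and QUE count was 2 without MMS 500 µM number 3 or MMS vehicle number 5, 3 without MMS 500 µM number 4, and 4 without MMS vehicle number 2, QUE 100 µM number 4 or 5, or QUE vehicle number 1. It was 11 without MMS 500 µM number 2 or 5, 13 without QUE 100 µM number 1 and 15 without MMS vehicle number 4. The ETP and QUE count was 6 without QUE 100 µM number 1, and 1 without ETP 3 µM number 6, ETP vehicle number 5, QUE 100 µM number 3 or QUE vehicle number 6.

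The brightest probe set of a gene did not speak for its dimmer ones. Of 156 probe sets of the members above the filter, 88 were not the brightest of their gene, and they belonged to 42 genes. In a limma fit over all 27102 probe sets, none of the 44 such sets with a mean of 12 or more changed by 1.5-fold at a highest dose. Of the 37 with a mean under 10, 14 rose by at least 1.5-fold at MMS 500 µM and 8 at QUE 100 µM, where 15.2% and 13.8% of all probe sets did. At ETP 3 µM 0 rose by 1.5-fold, where 5% of all probe sets did, and 1 fell, a probe set of RPL13 (by 0.78 log2 units). The position of these probes on the transcripts was not analysed here, so a dim probe set may read another transcript of the gene.

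The largest change of any member probe set was on RPL27A, a large subunit protein. A dim probe set of it had 9.20, 8.73, 9.06, 9.05 and 9.29 at MMS 500 µM, and 6.32, 6.65, 6.03, 5.75, 4.66 and 5.50 in the vehicle. All dosed values lay far above the vehicle, and the rise was 3.25, or 9.5-fold (SE 0.32, limma adjusted p = 1.31e-11). It was 1.79 at MMS 300 µM and 0.41 at 100 µM, which did not pass. At QUE 100 µM the same probe set differed by -0.21 (limma adjusted p = 0.493).

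RPL37, a zinc-binding protein of the large subunit, showed a rise under MMS and QUE on both of its dim probe sets. The first had 10.29, 10.03, 10.07, 10.67 and 10.11 at MMS 500 µM, and 7.96, 7.66, 7.52, 7.75, 8.71 and 7.86 in the vehicle, without overlap. It rose by 2.32 (SE 0.26, limma adjusted p = 3.78e-10) at MMS 500 µM and by 1.66 (SE 0.21, limma adjusted p = 9.56e-08) at QUE 100 µM. The other rose by 1.98 and 1.58 at the same doses. Under QUE both had already risen at 30 µM, by 1.42 and 1.49, and stayed between 1.56 and 1.66 at 60 and 80 µM. The brightest RPL37 probe set rose by 0.12 at QUE 100 µM and did not pass at MMS 500 µM.

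A dim probe set of RPL28 had 9.11, 8.72, 9.05, 9.03 and 8.82 at MMS 500 µM, and 7.31, 7.41, 7.05, 7.28, 7.63 and 7.25 in the vehicle. At QUE 100 µM it had 9.73, 9.10, 9.60, 9.67 and 9.70, and in the vehicle 7.87, 8.39, 8.37, 8.11 and 8.10. Neither pair of groups overlapped, and it rose by 1.63 under MMS (limma adjusted p = 1.64e-12) and 1.39 under QUE (limma adjusted p = 4.94e-08). Its changes under 10, 30, 60 and 80 µM of QUE were 0.19 (limma adjusted p = 0.73), 1.41, 1.56 and 1.35. Dim sets of RPS23 rose by 1.31 at MMS 500 µM and 0.97 at QUE 100 µM, and a second RPL31 set by 0.94 and 0.85. A dim set of RPL10 went the other way under QUE, and fell by 0.79 at 30 µM. The remaining dim sets past 1.5-fold at MMS 500 µM belonged to RPS15, RPL13, RPS28, RPS21, RPS16, RPS15A and RPS19, with rises of 0.60 to 1.32.

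**Figure D5:**
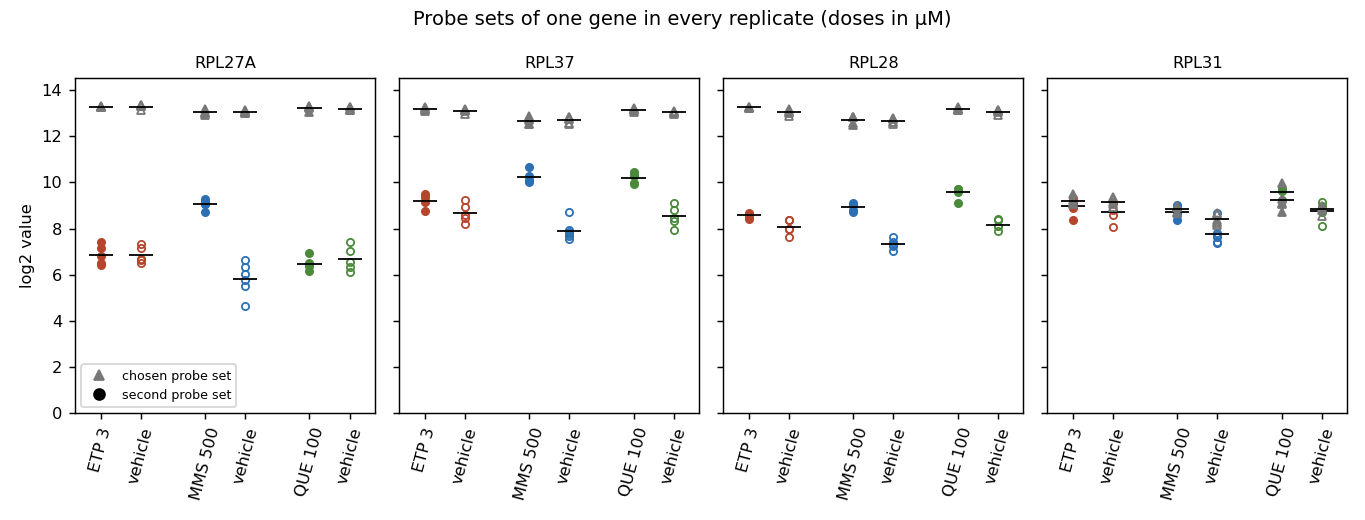
Log2 signal of the brightest probe set (triangles) and of a dimmer one (circles) of RPL27A, RPL37, RPL28 and RPL31 in every replicate at the highest doses (filled) and in their vehicles (open), with bars at the means. The dimmer sets of RPL27A, RPL37 and RPL28 stand above their vehicle at MMS 500 µM, while the bright sets of the same genes overlap theirs.

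The rise at QUE 100 µM was set beside the form of the gene start. Of the 43 members with the pyrimidine run, 25 rose, against 3 of the 15 without it, and the median changes were 0.09 and 0.05. At ETP 3 µM the counts were 11 of 43 and 5 of 15, with medians of 0.05 and 0.07, and at MMS 500 µM 4 of 43 and 1 of 15, with medians of -0.01 and 0.02. Of all genes, 25.8% rose at QUE 100 µM, 20.9% at ETP 3 µM and 33.9% at MMS 500 µM. The difference between the classes was not tested.

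Related genes outside the family gave the following background at the same 3 doses. FAU, which encodes the small subunit protein RPS30 fused to a ubiquitin-like protein, rose at all 3, by 0.12 (ETP), 0.22 (MMS) and 0.15 (QUE). Of 6 measured paralogs of ribosomal proteins, 2 rose at ETP 3 µM, 3 rose and 1 fell at MMS 500 µM, and 2 fell at QUE 100 µM. RPS27L, a paralog of RPS27 known as a p53 target, rose at ETP 3 µM by 0.31 (SE 0.04, limma adjusted p = 1.89e-08) and at every ETP dose from 0.03 µM (0.17) up, while RPS27 itself did not pass at any ETP dose. With the number as a block RPS27 passed at ETP 0.1, 0.3 and 3 µM (limma adjusted p of 0.0416, 0.0356 and 0.0232), and at 3 µM also with number 2 kept (0.0162) or without number 3 of the vehicle (0.0252). RPS27L rose by 0.15 at MMS 300 µM but differed by -0.06 at 500 µM (limma adjusted p = 0.359). RPL22L1 fell by 0.21 at MMS 500 µM and by 0.31 at QUE 100 µM. RPL26L1 rose by 0.16 at ETP 3 µM and 0.40 at MMS 500 µM, RPL7L1 by 0.43 at MMS 500 µM, and RPL36AL rose by 0.34 under MMS and fell by 0.21 under QUE.

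At the highest ETP, MMS and QUE doses 20.9%, 33.9% and 25.8% of all genes rose and 20.5%, 27.3% and 24.7% fell, as a background to the lists that follow. Of 20 measured translation factors and other mRNAs of the TOP class, 6 rose and 3 fell at ETP 3 µM, 5 rose and 3 fell at MMS 500 µM, and 10 rose and 2 fell at QUE 100 µM. EEF2, which moves the ribosome along the mRNA, rose by 0.24, 0.29 and 0.31 at the highest ETP, MMS and QUE doses. The initiation factor gene EIF4B rose by 0.37 at QUE 100 µM, and EIF4A2, a helicase of initiation, by 0.38 at MMS 500 µM.

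Of 28 measured factors that build ribosomes, 20 rose and 3 fell at MMS 500 µM, with a list median of 0.50 against 0.05 over all genes. Their median size of change was 0.17 at ETP 3 µM, 0.53 at MMS 500 µM and 0.26 at QUE 100 µM, against 0.21, 0.40 and 0.34 for all genes. The largest rises there were UTP15 (1.52) and BYSL (1.38), both of small subunit processing, RRP12 (1.09) and PNO1 (0.99). At ETP 3 µM 3 rose and 6 fell, and at QUE 100 µM 3 rose and 6 fell. UTP20, a component of the small subunit processome, fell by 0.94 under ETP and by 1.66 under QUE, and HEATR1 and POLR1B, which act in transcription of ribosomal RNA, fell by 1.16 and 0.91 under QUE. FBL, the methyltransferase fibrillarin, fell by 0.49 at ETP 3 µM.

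Of 75 measured mitochondrial ribosomal proteins, which serve the separate ribosome of that organelle, 15 rose and 17 fell at ETP 3 µM, 43 rose and 14 fell at MMS 500 µM, and 10 rose and 25 fell at QUE 100 µM. Changes of at least 1.5-fold past the test numbered 1, 15 and 6 of 75, against 0 of 68 cytosolic members at each dose, in both cases by the brightest probe set, and against 13.2%, 34.6% and 27.6% of all genes. MRPL49 rose by 0.93, 0.98 and 1.00 under ETP, MMS and QUE. In the mTOR and MYC list of 15 genes, SESN1 and SESN2, p53 targets that restrain mTOR, rose by 1.64 and 0.92 at ETP 3 µM and by 1.03 and 1.65 at QUE 100 µM, and SESN2 rose by 0.73 at MMS 500 µM. DDIT4, another mTOR inhibitor, fell by 2.88 at MMS 500 µM, LARP1 rose by 0.59 there, and MYC rose by 0.78 at QUE 100 µM.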

How the data were processed

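RNA of HT-1080 cells was measured on 145 one-colour Affymetrix arrays. The authors deposited log2 values per probe set, with GCRMA and Partek as the tools named, per the submitters' processing notes. Their versions and a genome build are not given in the sources used here. Array upper quartiles of the 3 experiments did not overlap (ETP 6.56 to 6.64, MMS 5.68 to 6.01, QUE 6.22 to 6.48), so each chemical was set only against its own vehicle. The number of arrays limits the precision, as arrays give no read depth. Groups and numbers came from the titles. After leaving out the 16 number 2 arrays of ETP and QUE, 129 arrays were used, and repeat arrays of a group and number were averaged, which gave 127 replicates.

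Of 54613 probe sets, 40914 had 1 symbol in the platform annotation (864 several, 12835 none). Those with a log2 value of at least 4 in at least 5 arrays were kept, and each gene took the probe set with the highest mean, which left 12070 genes. The chosen probe set had an x or s suffix, a sign of possible cross-hybridisation, in 57 of 68 members, and the near-identical copies and many pseudogenes of this family can share such signal. limma 3.58.1 (lmFit, eBayes with trend) in R 4.3.3 fitted the 8 groups of each chemical, with Benjamini-Hochberg adjustment over 12070 genes. The test was tried on simulated data: of 10 members changed by 0.2 log2 units it recovered 10 for ETP, 4 for MMS and 10 for QUE, and of 10 changed by 0.1 it recovered 5, 0 and 4. The simulation left most genes unchanged and gave each sample independent noise. In the data many genes changed and same-numbered samples deviated together, so recovery there can differ.

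Deviations of same-numbered dosed and vehicle samples from their group means correlated above 0.1 for every pair at all ETP doses, MMS 1 to 300 µM and QUE 1 to 30 µM (lowest r 0.15), so there the numbers pair the samples. At MMS 500 µM and QUE 60 to 100 µM at least 1 pair did not. Members named were the up to 6 with the largest rise and fall past the test at each dose, a fixed list of 15 well-known members, and the up to 4 largest differences each way between chemicals. For other lists the up to 4 largest changes past the test were eligible. Other genes and probe sets were named after their values were seen. The members, lists and tests were chosen with earlier results of these data known. Alternatives were the number 2 arrays kept, a replicate block, quantile normalization, median centring, no variance trend, other filters, other probe sets per gene, an array marked nf left out, each replicate left out, and, chosen after seeing the data, the low MMS arrays left out. Figures were drawn with matplotlib 3.10.9.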

Additional observations from a re-analysis of the deposited data

Results flagged for a closer look

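In 24 groups the mean over the 68 ribosomal protein genes was checked for a single sample far from the rest by Dixon's ratio, and 2 stood apart. Number 4 at MMS 3 µM had a mean of 12.48 against 12.60 to 12.66 in the others, and number 1 at QUE 100 µM had 12.91 against 13.01 to 13.04. The same check of named members in 98 groups gave 6, and chance gives about 1 in 20. RPS6 was high in number 4 of the ETP vehicle (13.50 against 13.32 to 13.38) and low in number 4 of the MMS vehicle (12.88 against 13.06 to 13.13). RPS18 was low in that same MMS sample (13.17 against 13.39 to 13.45), and RPL10A in number 1 of the MMS vehicle (12.81 against 12.87 to 12.88). RPL36A was low in number 1 at QUE 100 µM (12.46 against 12.76 to 12.77) and in number 1 of the QUE vehicle (12.24 against 12.51 to 12.59).

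A difference in the change between chemicals passed limma's test of the difference for 13 cases. ETP 3 µM minus MMS 500 µM was 0.21 for RPL7A, 0.20 for RPL26, 0.18 for RPS2, 0.15 for RPS28, 0.12 for RPS3 and -0.13 for RPLP2. MMS 500 µM minus QUE 100 µM was -0.29 for RPL26, -0.24 for RPS25, -0.21 for RPL7A, -0.20 for RPL11, -0.19 for RPS3, -0.14 for RPS21 and -0.13 for RPS28. Of these, RPS28 turned sign on other probe sets of the gene. By the mean of their probe sets the ETP and MMS differences of RPLP2 and RPS2 did not pass (limma adjusted p of 0.715 and 0.0726).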

How the results depend on the processing

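Counts below are members past limma's test. The shares of all genes also shift between settings and are not printed beside these counts. A count alone therefore does not show whether the members or all genes shifted. The same holds for counts of other settings given above without a share. With number 2 kept, ETP 0.1 µM gave 0. The replicate block gave 8, 10 and 31 at ETP 0.03, 0.1 and 3 µM, 1, 6 and 15 at MMS 100, 300 and 500 µM (there 12 higher, with RPL7A, RPS3 and RPS6 lower), 2, 16, 31 and 38 at QUE 10, 30, 60 and 80 µM, 20, 11 and 51 by F-test for ETP, MMS and QUE, and 19, 15 and 28 for the differences ETP and MMS, ETP and QUE, and MMS and QUE. Quantile normalization gave 5 at ETP 0.3 µM, 2 and 18 at MMS 300 and 500 µM (RPL41 and RPL7A lower), 7 by F-test for MMS, 1 and 20 at QUE 10 and 60 µM, and 2 for ETP and QUE. Median centring gave 5 and 28 at ETP 0.3 and 3 µM, 2 and 19 at MMS 300 and 500 µM, 0, 3, 4 and 14 at QUE 30, 60, 80 and 100 µM, 11 and 9 by F-test for MMS and QUE, and 3 and 2 for ETP and MMS and for MMS and QUE. It moved the median of all genes at MMS 500 µM to 0.11. Without a variance trend there were 1, 3, 4 and 7 at ETP 0.1, 0.3, 1 and 3 µM, 2 at MMS 500 µM, 3, 4, 5 and 12 at QUE 30 to 100 µM, and 3 and 8 by F-test for ETP and QUE. No filter gave 3, 4 and 11 at ETP 0.1, 0.3 and 3 µM, 3 at MMS 500 µM and 4 for MMS and QUE. A filter at log2 6 gave 2 at MMS 300 µM, 2 by F-test for MMS and 1 for ETP and QUE. The mean of a gene's probe sets gave 2 at ETP 0.1 µM, 15 and 12 by F-test for ETP and MMS, 10 and 13 at MMS 300 and 500 µM, 13 at QUE 30 µM, and 13, 7 and 13 for the differences; past 1.5-fold it gave 1 and 6 at MMS 300 and 500 µM and 2, 2, 2 and 3 at QUE 30 to 100 µM. The brightest probe set without a suffix gave 3 at ETP 0.1 µM, 1, 12 and 12 at MMS 100, 300 and 500 µM, 11 by F-test for MMS, 13 at QUE 30 µM, and 11 and 6 for ETP and MMS and for ETP and QUE; past 1.5-fold it gave 5 and 8 at MMS 300 and 500 µM and 6, 5, 4 and 4 at QUE 30 to 100 µM. Dropping the nf array gave 1 for ETP and QUE. Without the low MMS arrays there were 4 and 17 at MMS 300 and 500 µM, 5 by F-test, 3 for ETP and MMS and 2 for MMS and QUE. The cause of these shifts was not tested. At the highest doses calls stayed higher in these settings, except the MMS members named above, RPS15 at ETP 3 µM and RPL10 at QUE 100 µM under other probe sets.

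Leaving out each replicate in turn gave 0 to 1, 2 to 6, 4 to 8, 9 to 15 and 12 to 23 at ETP 0.03 to 3 µM (the 1 without vehicle number 3), 1 to 3 and 2 to 8 at MMS 300 and 500 µM, 6 to 10, 9 to 23, 8 to 24 and 22 to 44 at QUE 30 to 100 µM, 6 to 9, 1 to 3 and 22 to 35 by F-test, and 2 to 11, 0 to 6 and 2 to 15 for the differences. Among 94 results for single named members, none that passed in the main fit or without the sample turned sign there. Signs were not compared where neither fit passed. Under the mean of probe sets RPS27 at MMS 500 µM became -0.093, RPS19 at QUE 30 µM -0.060 and the RPS28 difference between ETP and MMS -0.60. Under the probe set without a suffix RPS19 became -0.0012 and -0.32 at ETP 0.3 and 3 µM and -0.58, -0.34 and -0.17 at QUE 30, 60 and 100 µM, RPS27 -0.32 at MMS 500 µM and -0.13, -0.083 and -0.11 at QUE 30, 80 and 100 µM, the RPS28 difference -0.87, and RPL22 at ETP 3 µM 0.27.

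Most members lie near the brightest values of an array, and the groups hold 5 or 6 replicates. The simulated test recovered no member change of 0.1 log2 units for MMS and only part of those for ETP and QUE. Changes of that size can therefore be missed, most of all under MMS. The share missed in the real comparisons was not tested.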
